A study of Homo sapiens with 6 samples.

Results

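The microRNA miR-7 is made from 3 precursor genes, MIR7-1, MIR7-2 and MIR7-3, and their transcripts were followed here together with the 2 genes known to carry precursors, HNRNPK for MIR7-1 and MIR7-3HG for MIR7-3. All probe sets annotated to exactly 1 of these 5 symbols were taken, 5 of 14884 named genes and 6 of 53617 rows: 1 each for MIR7-3HG, MIR7-3, MIR7-1 and HNRNPK, and 2 for MIR7-2. The cells were BE(2)-C_tetoff_KDM4C, a derivative of the human neuroblastoma line BE(2)-C in which doxycycline keeps a construct for the histone H3 lysine 9 demethylase KDM4C off. Total RNA of 3 samples cultured with doxycycline (construct off) and 3 cultured without it (construct on), all for 6 days in the same medium with dialyzed serum, was hybridised to 6 Affymetrix whole-transcript arrays. Both groups carry the construct, and no cells without it were analysed here, so KDM4C induction and doxycycline withdrawal cannot be told apart. The labels do not say whether the line is 1 clone. They call the samples of a group independent without naming separate cultures, so the errors below measure only the spread between these samples, which may be technical.

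A microRNA gene is transcribed as a long primary transcript, from which the enzyme DROSHA cuts a hairpin and DICER1 cuts the mature strand of the hairpin. The mature strand guides Argonaute proteins to messenger RNAs that pair with its seed, the bases near its 5′ end, and these messages are then destabilised or less translated. miR-7 is known as an abundant microRNA of neuroendocrine and neuronal tissue that targets growth factor signalling, with EGFR among its first described targets. MIR7-1 lies in an intron of HNRNPK, which encodes a widely expressed RNA-binding protein, whereas MIR7-3HG is a long noncoding RNA of pituitary and other endocrine tissue. Labelled long RNA was measured on these arrays, so the values are those of precursor or host transcripts, not of mature miR-7.

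The sequences show why the loci matter together: they encode the same mature microRNA. Sequences are from RefSeq (GRCh38.p14), where all 3 MIR7 genes were matched, and the hairpins of MIR7-2 and MIR7-3 are shown. In the mature strands below, the capitals mark the seed (bases 2 to 8), and in the hairpins they mark the mature miR-7-5p.
hsa-miR-7-5p: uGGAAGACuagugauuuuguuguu
MIR7-3 hairpin: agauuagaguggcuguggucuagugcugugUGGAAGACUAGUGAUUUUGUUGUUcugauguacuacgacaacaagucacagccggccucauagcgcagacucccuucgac
MIR7-2 hairpin: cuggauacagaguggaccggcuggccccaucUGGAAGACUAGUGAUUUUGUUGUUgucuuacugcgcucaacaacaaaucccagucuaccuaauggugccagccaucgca
hsa-miR-7-1-3p: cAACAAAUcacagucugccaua
hsa-miR-7-2-3p: cAACAAAUcccagucuaccuaa
hsa-miR-3529-3p: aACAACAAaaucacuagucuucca

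The 24 bases of miR-7-5p were identical in the MIR7-1 and MIR7-3 entries (chr9:83969811-83969834, minus strand, and chr19:4770700-4770723, plus strand), and they occur unchanged in the MIR7-2 hairpin (chr15:88611825-88611934, plus strand). Of 2545 mature entries listed, 2 had the seed GGAAGAC, and both were miR-7-5p, of MIR7-1 and MIR7-3. No miR-7-5p entry was listed for MIR7-2 and no hairpin for MIR7-1, so the count of 2 leaves MIR7-2 out. Outside the mature strand the hairpins of MIR7-2 and MIR7-3, each 110 bases long, differ. Aligned over their whole length, mature strand included, they were identical at 76 of 116 alignment columns (65.5%). The 3p strands of MIR7-1 and MIR7-2 had the same seed and 4 substitutions, A10C, G17A, A20U and U21A, counted from the 5′ end of miR-7-1-3p. The microRNA gene MIR3529 lies on the opposite strand at MIR7-2, and its 3p strand was the exact reverse complement of miR-7-5p. MIR3529 had no named probe set.

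MIR7-3HG and MIR7-3, the host transcript and the hairpin inside it, were the members with large differences between the groups. MIR7-3HG was at 6.30, 6.07 and 6.19 (log2 expression values, replicates 1 to 3) without doxycycline and at 4.44, 4.72 and 5.12 with it. Every array without doxycycline lay above every array with it, and the spread was wider with doxycycline (SD 0.34) than without (SD 0.11). The mean was 6.19 against 4.76, a log2 difference of 1.43 (SE 0.17), or 2.70-fold higher without doxycycline. The row named for the MIR7-3 hairpin was at 6.31, 6.08 and 6.39 without doxycycline and 4.65, 4.95 and 4.96 with it. Here too the groups were apart, at 6.26 ± 0.16 against 4.85 ± 0.18 (SD, n = 3 each), a log2 difference of 1.41 (SE 0.12), or 2.65-fold. In RefSeq the MIR7-3 hairpin lies inside MIR7-3HG on the same strand and begins 1565 bases downstream of the start of its host, so both rows can read 1 transcript and are not independent measurements of 2.

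**Figure D1:**
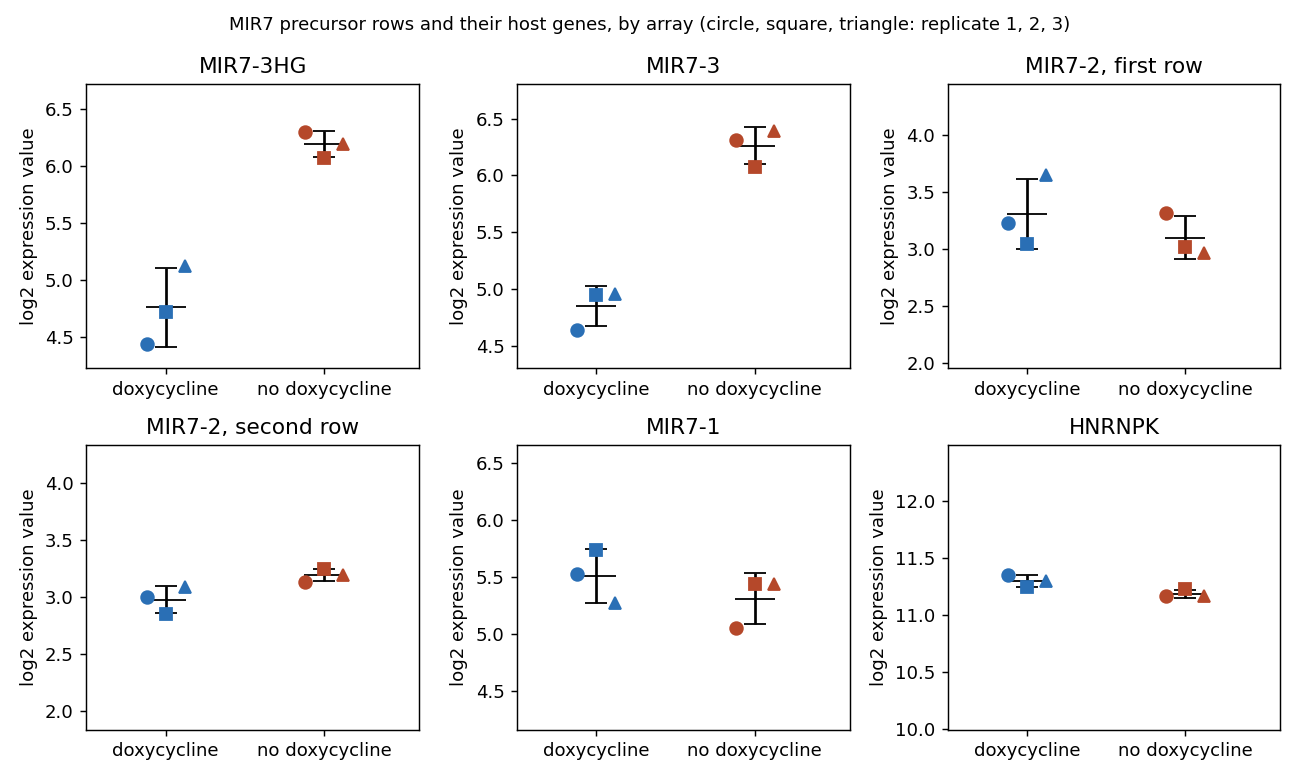
Log2 expression values of the 6 rows in each array, with doxycycline (blue) and without it (red); the horizontal bar is the mean of 3 arrays, the error bar the SD, and circles, squares and triangles are replicates 1, 2 and 3. Every panel spans the same log2 range: MIR7-3HG and MIR7-3 lie 1.43 and 1.41 higher without doxycycline, and the other 4 rows differ by 0.22 or less in size.

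The loci were selected on this same difference between the groups, seen at MIR7-3HG and MIR7-3, so all 6 rows are given as a description and not as a test. For the same reason nothing is read from the count of calls: 2 of the 6 rows passed a limma adjusted p of 0.05 (MIR7-3HG and MIR7-3), where 0.341% of all probe sets did in either direction and 0.248% did as higher ones. The count is 0 of 6 without any 1 of the 6 arrays. The size of the differences moved less than the calls did, from 1.27 to 1.61 for MIR7-3HG and from 1.30 to 1.50 for MIR7-3 when 1 array was left out. The groups did not overlap in 4 of the 6 rows, against 19.3% of all probe sets. Ordered by difference, MIR7-3HG stood 16th and MIR7-3 19th from the top of 53617 probe sets.

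The MIR7-2 rows were dim and went in opposite directions. The first was at 3.31, 3.01 and 2.96 without doxycycline and 3.22, 3.04 and 3.64 with it, so the groups overlapped and the log2 difference was -0.21 (95% confidence interval -0.62 to 0.20). Without doxycycline replicate 2 or 3 it was -0.34 and -0.04, and without replicate 1 of the group lacking doxycycline it was -0.32. The second was at 3.13, 3.24 and 3.19 without and 2.99, 2.85 and 3.08 with doxycycline, a difference of 0.22 (95% confidence interval 0.02 to 0.41) with groups apart by a small gap. Both rows carry the same symbol and accession, and the annotation does not say how they differ or which strand each reads. Their means over the 6 arrays, 3.20 and 3.08, lie below the median probe set at 3.94, so no direction for MIR7-2 can be given.

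MIR7-1 was at 5.05, 5.44 and 5.44 without doxycycline and 5.52, 5.74 and 5.27 with it. The groups overlapped, and the log2 difference was -0.20 (95% confidence interval -0.58 to 0.17). It depended on single arrays: it was -0.09 and -0.32 without doxycycline replicate 2 or 3, and -0.07 without replicate 1 of the group lacking doxycycline. HNRNPK, its host, was at 11.16, 11.23 and 11.17 without and 11.35, 11.24 and 11.30 with doxycycline. The values of HNRNPK did not overlap but differed by only -0.11 on the log2 scale (95% confidence interval -0.26 to 0.04), or 1.08-fold.

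The start of MIR7-3HG is shown because the rows of host and hairpin were higher together. The window runs from 250 bases before to 50 after the RefSeq start (chr19:4768855-4769154, plus strand, GRCh38.p14), and capitals mark the matches to the motifs searched.
MIR7-3HG start: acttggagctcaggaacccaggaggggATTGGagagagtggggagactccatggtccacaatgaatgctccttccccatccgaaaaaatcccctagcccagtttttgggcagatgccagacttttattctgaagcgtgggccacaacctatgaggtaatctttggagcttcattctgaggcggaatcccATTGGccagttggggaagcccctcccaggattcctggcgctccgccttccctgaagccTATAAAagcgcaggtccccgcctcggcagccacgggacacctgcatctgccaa

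Both strands were searched for 6 motifs. The window held the TATA box letters TATAAA once, from -3 to 3 around the annotated start, as did 11.5% of 35116 windows of this length in the table. It held the CCAAT box letters CCAAT on the minus strand at -223 and at -61, and 34.6% of windows held at least 1. It held no match to the AP-1 site TGANTCA (7.71% of windows), the cAMP response element TGACGTCA (1.85%), the C/EBP-ATF response element TGATGNAAN (3.61%) or the E-box CACGTG (7.26%). The 2 HNRNPK windows in the table also lacked all of these 4, and 1 of them held CCAAT, at -99 and at -58. With 9 CpG dinucleotides the MIR7-3HG window had fewer than the median window (14), and the HNRNPK windows had 29 and 32. A match to letters is not a bound site, and no array measured binding or histone methylation there.

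The genes beside the MIR7 loci showed no test call. Of the 30 named genes measured nearest to the loci, 5 on each side, 0 passed limma's adjusted p of 0.05, against 0.564% of all named genes, and 1 was higher and 0 lower before adjustment (p below 0.05). Before adjustment 7.57% of all named genes were higher and 6.87% lower, and these shares are the background of the gene lists that follow too. The median log2 difference of the neighbours was 0.01, beside -0.002 over all named genes. The nearest measured genes of MIR7-3 on either side are DPP9, a dipeptidyl peptidase, and FEM1A, a substrate receptor of a ubiquitin ligase. DPP9 was at 0.21 (limma adjusted p = 0.494) and FEM1A at -0.08 (adjusted p = 0.665). All 10 neighbours of MIR7-3 lay between -0.14 and 0.21. Beside MIR7-1, QNG1 and AGTPBP1 were at 0.09 and -0.04.

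Next to MIR7-2 lies another microRNA gene, MIR1179, which is counted among the neighbours and among the microRNA rows below. Its row was at 6.79, 6.57 and 6.59 without doxycycline and 5.86, 6.50 and 5.71 with it. The groups did not overlap, but doxycycline replicate 2 was close to the lowest array of the other group. The log2 difference of 0.62 (SE 0.20, 1.54-fold) did not pass (limma adjusted p = 0.285). DET1, the next gene on that side, was at 0.14, and its groups were apart as well. These were the 2 of 30 neighbours with groups apart, against 24.6% of all named genes. AEN, a nuclease gene on the other side of MIR7-2, was at -0.05.

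Rows named for other microRNAs were set beside the MIR7 rows. There were 1232 of them for 1069 genes, and 688 lay below the median probe set at 3.94. The median level of all 1232 was 3.75, against means of 5.47 for MIR7-3HG and 5.56 for MIR7-3. The median log2 difference of the 1232 rows was 0.03, beside 0.01 over all probe sets. Their middle 90% lay between -0.32 and 0.35, a range that is in large part that of dim rows. In limma 1 passed as higher and 2 as lower, where 0.248% and 0.0933% of all probe sets did (89 and 51 rows at an unadjusted p below 0.05). MIR3143 was the 1 row with a larger difference than MIR7-3, at 10.12, 10.08 and 10.29 without and 8.55, 8.74 and 8.92 with doxycycline (log2 1.43, SE 0.11, 2.69-fold, limma adjusted p = 0.0138). Besides MIR3143, 2 of these rows had a difference above 1, and they are named after their values were seen. MIR9-1, a precursor gene of the neuronal microRNA miR-9, was at 6.22, 6.66 and 6.74 without and 5.12, 5.37 and 5.74 with doxycycline, with groups apart (log2 1.13, SE 0.20, 2.18-fold, limma adjusted p = 0.0918). A dim row of MIR3190 was at 4.70, 3.87 and 4.51 without and 3.24, 3.34 and 3.02 with doxycycline (log2 1.16, limma adjusted p = 0.107), and the other 2 rows of that gene were at 0.58 and 0.72. The 2 lower rows were named MIR548I1 (-0.83, adjusted p = 0.0206) and MIR548I2 (-0.95, adjusted p = 0.0262), members of a multicopy family whose rows are uncertain. Another MIR548I2 row was at 0.08. The higher row nearest to the threshold without passing was MIR4662A, at 0.56 (limma adjusted p = 0.0501), and a second row of that gene was at 0.14.

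**Figure D2:**
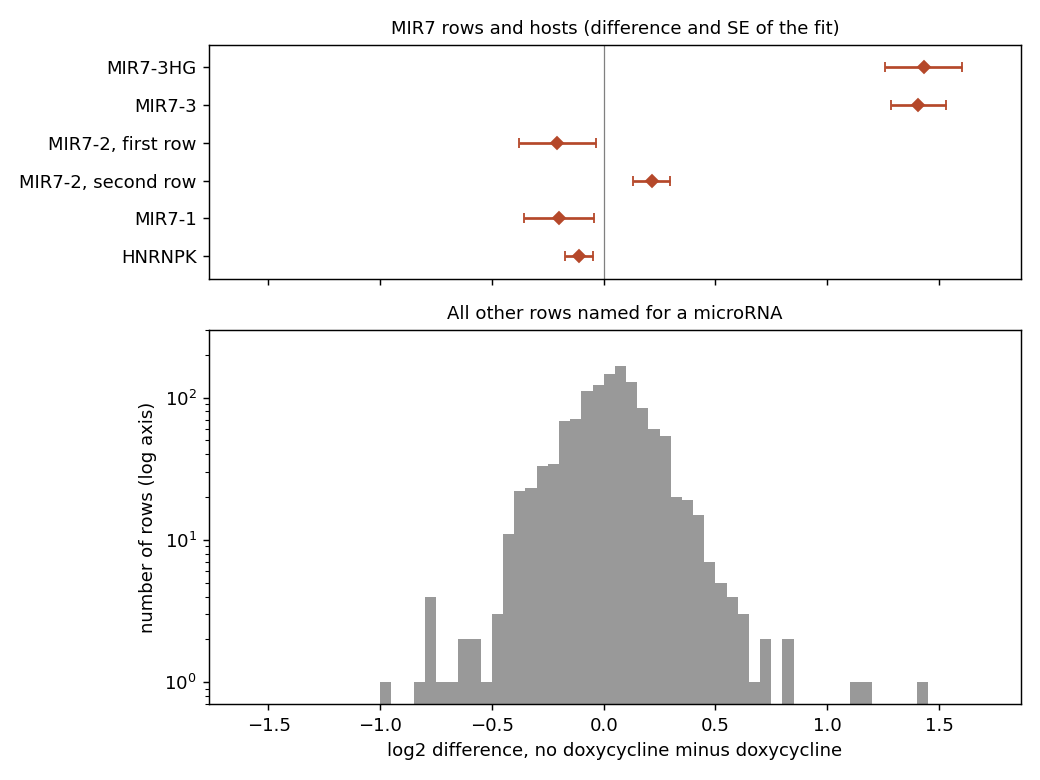
Top, log2 difference (no doxycycline minus doxycycline) of the 6 rows with the SE of the limma fit as error bars; bottom, number of the 1232 other microRNA rows per bin of that difference, on a log axis. MIR7-3HG and MIR7-3 at 1.43 and 1.41 lie at the upper end, with the rows of MIR3143 at 1.43, MIR3190 at 1.16 and MIR9-1 at 1.13 near them, and MIR7-1 and MIR7-2 lie inside the bulk.

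Other microRNA host genes were taken by symbol, beginning with MIR and ending in HG, so hosts named otherwise, as HNRNPK is, are not among them. Among their 27 rows for 25 genes, 0 passed in limma, against 0.341% of all probe sets. Before adjustment 2 were higher and 1 lower at a p below 0.05, where 6.7% and 5.73% of all probe sets were. The highest was MIR181A2HG, at 7.61 without and 7.22 with doxycycline (log2 0.40, adjusted p = 0.128), followed by MIR99AHG (0.40, adjusted p = 0.192). MIR550A3HG and MIR181A1HG were both at -0.22. The host genes had a median of 0.02.

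Genes reported in the literature as miR-7 targets were set beside the MIR7 rows. Of 39 listed, 24 had a named probe set, and 15 were not analysed here. Of the 24, 0 passed limma's threshold, where 0.564% of all named genes did, so a count of 0 is near the background for a list of this size. Before adjustment 0 were higher and 2 lower (p below 0.05; 7.57% and 6.87% of all named genes), and 15 differences were positive and 9 negative. The median was 0.01, beside -0.002 over all named genes. The largest difference was that of EGFR, the receptor of epidermal growth factor, which was at 8.89, 8.92 and 8.86 without doxycycline and 9.21, 9.20 and 9.13 with it. The groups of EGFR were apart, with a log2 difference of -0.29 (SE 0.06, 1.22-fold lower without doxycycline), but it did not pass over all probe sets (limma adjusted p = 0.147). Over all 24 genes the 95% confidence intervals reached from -0.44 to 0.51, so changes beyond these bounds lie outside the interval of every measured target.

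Within the targets of growth signalling, EIF4E, the cap-binding factor of translation, was at -0.13, and the insulin receptor substrate IRS2 and the mTORC2 subunit MAPKAP1 were at 0.20 and 0.07. MTOR, IGF1R and IRS1, reported targets of the same pathway, were named after their values were seen and lay at -0.01, 0.004 and 0.02. Of the neuronal and secretory targets, the complexin CPLX1 was at -0.10, the profilin PFN2 at 0.01 and the dim transcription factor PAX6 at 0.22. Of the remaining targets, the chromatin organiser SATB1 was at -0.19 (unadjusted p below 0.05, limma adjusted p = 0.374) and the cullin CUL5 at -0.08. The apoptosis inhibitor BCL2 and the cyclin CCNE1 were at 0.19 and 0.16. With EGFR, EIF4E, SATB1, CUL5 and VDAC1 lower and MAPKAP1, BCL2 and KLF4 higher, 8 of the 24 had groups that did not overlap, against 24.6% of all named genes.

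A mixed list of genes tied to the processing or decay of miR-7, some of them general factors, was set beside the MIR7 rows. All 5 measured had negative differences, with a median of -0.12, but 0 passed in limma (0 at an unadjusted p below 0.05). Of all 14884 named genes, 7526 had negative differences. The groups did not overlap in 3 of the 5, against 24.6% of all named genes. MSI2, which with ELAVL1 holds back the processing of MIR7-1, was at 9.61, 9.62 and 9.63 without and 9.71, 9.73 and 9.77 with doxycycline. That is a log2 difference of -0.12 (limma adjusted p = 0.472) with groups apart. LINC00632, the locus from which the miR-7 sponge CDR1-AS is made, was at -0.14 (adjusted p = 0.495), and SRSF1, a splicing factor that aids miR-7 maturation, at -0.13. The ubiquitin ligase subunits ZSWIM8 and CUL3, which act in target-directed microRNA decay, were at -0.01 and -0.10. CDR1-AS, ELAVL1 and OIP5-AS1 are not analysed here.

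Of 12 general microRNA processing genes, 0 passed in limma, and 2 were higher and 0 lower before adjustment (7.57% and 6.87% of all named genes). LIN28B, which blocks let-7 processing, was at 9.26, 9.17 and 9.09 without and 8.89, 8.90 and 8.60 with doxycycline (log2 0.38, adjusted p = 0.220). Its groups did not overlap. KHSRP, a cofactor of precursor processing, was at 0.19, the exporter XPO5 at -0.07 and the Argonaute partner TNRC6C at -0.11. DROSHA, DICER1 and the AGO genes are not analysed here.

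The relatives of HNRNPK were set beside it. Of 22 hnRNP and PCBP genes, RNA-binding proteins of the nucleus, 18 had positive differences, where 7358 of all 14884 named genes did. In 10 of the 22 the groups did not overlap, against 24.6% of all named genes. The median of the 22 was 0.08 beside -0.002 over all named genes, and 0 passed in limma. Before adjustment 2 were higher and 0 lower, beside the 7.57% and 6.87% of all named genes. PCBP1, which shares the KH domains of HNRNPK, was at 0.25 (adjusted p = 0.227) and HNRNPL at 0.17. HNRNPC and HNRNPR were at -0.10 and -0.06. HNRNPK, at -0.11 (SE 0.06), lay beside HNRNPC at the low end of the family.

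Transcription factors of neuroendocrine cells and MYC were set beside MIR7-3HG because miR-7 marks such cells and MIR7-3HG is reported as a MYC-dependent transcript. Of 21 measured, 0 passed in limma, 3 were higher and 0 lower before adjustment (7.57% and 6.87% of all named genes), and the median was 0.05. However, 12 of the 21 were dim, below the median probe set at 3.94. The 9 others had a median of 0.12, for which no background of equally bright genes was computed. SOX4 was at 10.09, 10.16 and 10.12 without and 9.74, 9.75 and 9.83 with doxycycline, a log2 difference of 0.35 (SE 0.06, 1.27-fold, adjusted p = 0.103). It passed with trend and robust moderation of the variances. PROX1 was at 0.28 (adjusted p = 0.163) and HOXD10 at 0.22 (limma adjusted p = 0.374), which with SOX4 are the 3 higher before adjustment. INSM1 was at -0.19 and the REST cofactor RCOR1 at -0.07. MYC, named beyond the rule, was dim at 3.10 and 3.02, and MYCN, which BE(2)-C cells are known to carry amplified, is not analysed here.

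MIR7-3HG is also reported to act on autophagy, the breakdown of cell contents in lysosomes, through AMBRA1. AMBRA1, named for that reason, was at 6.44 without and 6.53 with doxycycline (log2 -0.09, 95% confidence interval -0.37 to 0.18). Of 11 autophagy genes, 0 passed in limma, 2 were higher and 2 lower before adjustment (7.57% and 6.87% of all named genes), and the median was -0.02. The initiating kinase ULK1 and the autophagosome protein MAP1LC3B were at 0.27 and 0.18, and ATG14 and RB1CC1, parts of complexes of initiation, at -0.33 and -0.23.

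**Figure D3:**
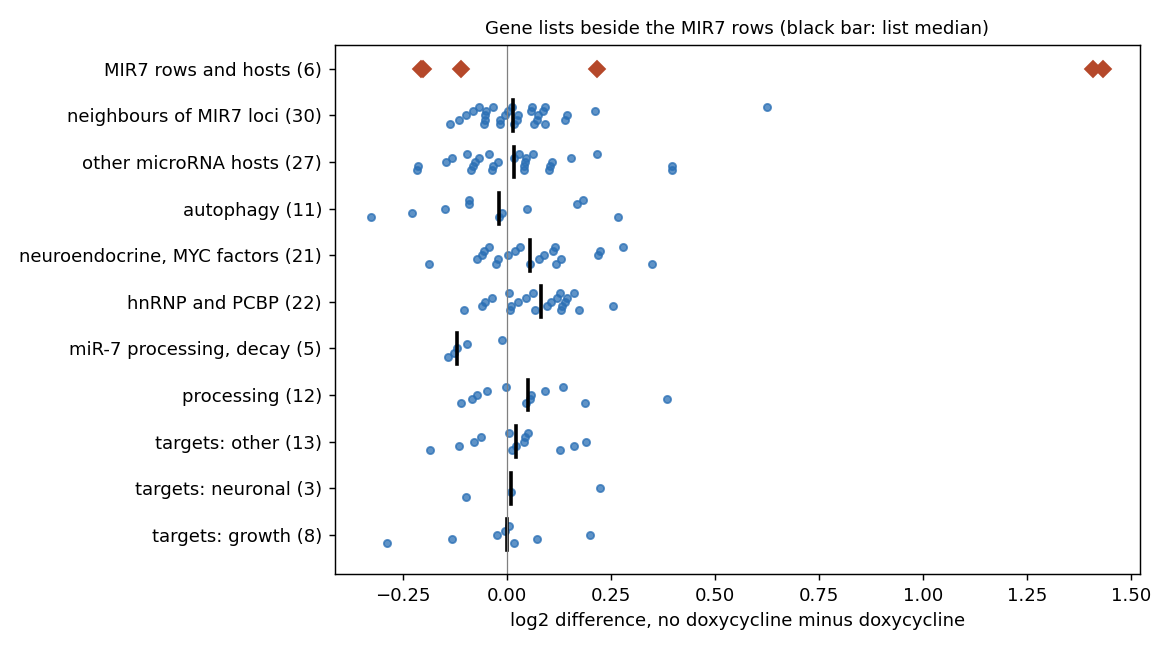
Log2 difference (no doxycycline minus doxycycline) of each gene (points, stacked only for visibility) in the lists beside the MIR7 rows (diamonds), with the number of rows in parentheses and the list median as a black bar. List medians lie between -0.12 and 0.08, and no gene of these lists reaches the 1.41 of MIR7-3.

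The genes whose pattern over the 6 arrays was most like that of MIR7-3HG were XBP1, MYBL1, DDR2, SHMT2 and GSE1, with Pearson correlations of 0.998, 0.998, 0.995, 0.995 and 0.994. The MIR7-3 row itself had 0.982. Over these 6 arrays in 2 groups, 509 of 14879 genes (3.42%) exceeded 0.9. How common values as high as those of the 5 are was not counted. The 5 were picked by correlation over these same arrays, so what they shared with MIR7-3HG follows from that choice. They shared the order of the arrays with doxycycline, replicate 1 lowest and replicate 3 highest, besides higher values without it. Their differences were smaller: SHMT2, an enzyme of glycine synthesis, was at 0.65 (limma adjusted p = 0.0367), XBP1, a transcription factor of the unfolded protein response, at 0.52 (adjusted p = 0.0581) and MYBL1 at 0.46. The collagen receptor DDR2 and GSE1 were at 0.35 and 0.16.

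**Figure D4:**
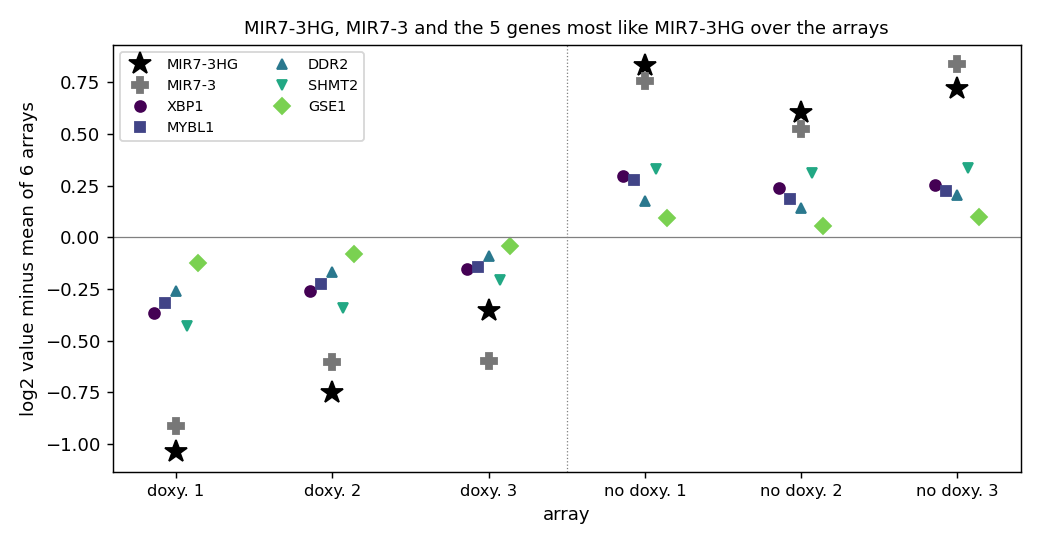
Log2 value minus the mean of the 6 arrays for MIR7-3HG, MIR7-3 and the 5 genes with the highest correlation with MIR7-3HG, by array. All lie below 0 in the 3 arrays with doxycycline and above 0 in the 3 without, and MIR7-3HG and MIR7-3 span the widest range. For the 5 genes this pattern follows from their choice by correlation over the same arrays.

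The KDM4C values went the way of the labels. KDM4C was at 8.97, 9.08 and 9.02 without doxycycline and 7.71, 7.77 and 7.80 with it, and this probe set cannot tell construct and endogenous transcript apart. Of 8 neuroblastoma markers measured the lowest group mean was 8.98, and 0 passed in limma (2 higher and 2 lower before adjustment). TH and DBH, enzymes of catecholamine synthesis, were at 0.34 and 0.28 (limma adjusted p = 0.190 and 0.244), and the granin CHGA and the neuronal gene STMN2 at -0.40 and -0.23 (adjusted p = 0.0856 and 0.225). Of the 20 markers of fibroblasts, Schwann cells, blood, endothelium, and epithelial or endocrine cells, 0 passed in limma (0 at an unadjusted p below 0.05). Of these 20, 14 lay below the median probe set at 3.94, among them the endocrine markers PRL and POMC. Without and with doxycycline, PRL was at 3.42 and 3.35 and POMC at 3.07 and 3.03. Others were brighter, such as THY1 at 6.58 and 6.65 and the brightest KRT18 row at 7.55 and 7.43. Another KRT18 row was dim, at 3.40 without and 3.54 with doxycycline (log2 -0.15), so the level of KRT18 is uncertain. A change in the share of cells that express a transcript and a change in its amount per cell cannot be told apart in such bulk RNA.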

How the data were processed

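Values are log2 expression values per probe set and array, as processed and deposited by the authors in Partek, per the submitters' processing notes. How background, normalization and probe summaries were handled, and on which build, is not stated in the notes used here. Array medians were 3.94 to 3.96. The number of arrays limits the precision. GEO's platform annotation named 16098 probe sets with 1 symbol, 0 with several and 37519 with none.

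All 53617 probe sets were fitted with limma 3.58.1 in R 4.3.3 (lmFit, eBayes, no covariate), with Benjamini-Hochberg adjustment and a threshold of 0.05. Differences are no doxycycline minus doxycycline. The brightest probe set stood for a gene with several. Members and lists were chosen with earlier results of these data known. Named were all members, genes past the threshold and the 2 of smallest p per direction and list. All genes listed for the processing or decay of miR-7, the nearest neighbours of each locus and the 5 genes most like MIR7-3HG were named too. Others are marked or complete a count. The fit was tested on simulated data. Alternatives were quantile normalization, median centring, trend with robust moderation, a filter on dim probe sets, a replicate block, the mean of a gene's probe sets, and leaving out each array.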

Additional observations from a re-analysis of the deposited data

How the results depend on the processing

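The 6 member differences kept their sign in all alternatives run and moved by less than 1 SD pooled over both groups; MIR7-3HG (to 1.61) and the second MIR7-2 row (to 0.15) moved by more than their smaller SD, that without doxycycline. Filtering dim probe sets removed both MIR7-2 rows. Over all probe sets, 133 higher and 50 lower became 255 and 130 with trend and robust moderation, 204 and 107 without dim probe sets, 0 and 0 with the replicate block, and 0 to 12 and 0 to 3 with 1 array left out (limma). Before adjustment, p was below 0.05 for 3314 higher and 2937 lower with the block, and for 2884 to 3305 and 2502 to 2988 with 1 array left out. The labels do not say whether the replicate numbers pair the samples. Deviations of same-numbered arrays correlated at -0.01, -0.01 and 0.04, and those of differently numbered arrays at -0.03 to 0.04. These correlations were taken over all probe sets, many of them dim, so they cannot exclude a pairing. The 2 member rows past the threshold became 0 with the block and 0 to 0 with 1 array left out. Other microRNA rows had 0 higher and 0 lower with the block, and 0 to 1 higher and 0 to 0 lower with 1 array left out. The neuroendocrine list had 1 higher, SOX4, with trend and robust moderation. The other lists had 0 calls in every alternative run.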

Other observations

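Several microRNA rows repeat each other. Of 1232 rows named for microRNAs other than the MIR7 genes, 102 had values identical on all 6 arrays to those of another such row, in 38 sets, which left 1168 distinct rows. The MIR486-1 rows were an example: 2 were identical, at a log2 difference of -0.76 (limma adjusted p = 0.0844), and another was at 0.12. None of the 6 MIR7, MIR7-3HG and HNRNPK rows was identical to another of the 6.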
